A study of Homo sapiens with 4 samples.

Results

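Mitotic kinases, cyclins and checkpoint genes were followed here as a module of 47 genes, of 58735 genes in the deposited expression table. The members were listed by name from the known machinery of mitosis and sorted into 11 roles, with no measured value in the rule. Members and comparison lists were nonetheless chosen with earlier results of these data known, so they are not independent of these data. RNA-seq had been run on HCT116 and LOVO, both human colorectal cancer cell lines with the genotype given as WT, each grown in 2 ways. Adherent cells were kept without treatment in RPMI-1640 with fetal bovine serum. Spheroids were grown for 2 weeks in ultralow attachment plates in serum-free DMEM/F12 with B27, N2, bFGF and EGF. They were treated at 1 mg/ml per the labels, which name no drug. The study's results section instead gives oxaliplatin, a platinum drug that cross-links DNA, at 1 μg/ml. Attachment, serum, growth factors and drug changed together, so they cannot be told apart in any comparison below. Each of the 4 conditions was 1 library, with 20429147, 15483569, 19778829 and 19108069 reads on genes for HCT116 adherent cells, HCT116 spheroids, LOVO adherent cells and LOVO spheroids. With 1 library per condition no test between conditions was possible within a line, and the intervals given below cover counting error only.

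Entry into mitosis is driven by CDK1 bound to cyclin B, whose activity is held back by inhibitory phosphorylation until CDC25 phosphatases remove it. Polo-like and Aurora kinases then build the spindle, the spindle checkpoint holds the cell in metaphase until each kinetochore is attached, and the anaphase-promoting complex (APC/C) with CDC20 destroys securin and cyclin B to start anaphase. Transcripts of most of these genes are made late in the cell cycle under the transcription factors FOXM1 and B-MYB (MYBL2) and are kept low in resting cells by the DREAM repressor complex. In a bulk sample, fewer dividing cells and less RNA per dividing cell cannot be told apart.

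The libraries were first read against their labels. Of 10 colorectal epithelial markers, the libraries labelled LOVO held no read of CDX2 in either condition, 13 and 1 reads of CDH1, and EPCAM at 0.930 and 1.499 FPKM (fragments per kilobase of transcript, scaled to library depth) in adherent cells and spheroids, against 85.6 and 79.3 FPKM in HCT116. The summed level of the list was 1754 and 1288 FPKM in HCT116 and 327 and 187 FPKM in LOVO, nearly all of it from KRT8, KRT18 and KRT19. VIL1, LGALS4 and CDH17 were under 1 FPKM in all 4 libraries and do not set the lines apart, and KRT20 stood at 0.930 and 7.45 FPKM in HCT116 and at 0.030 and 0.054 FPKM in LOVO. Of 7 fibroblast markers, LUM reached 31.4 and 50.4 FPKM and DCN 10.4 and 9.97 FPKM in LOVO, while DCN had no read and LUM at most 1 read in HCT116. COL3A1 stood at 0.007 and 0.358 FPKM in HCT116 and at 0.811 and 5.13 FPKM in LOVO, and PDGFRB at 0.082 and 0.175 and at 1.57 and 1.17 FPKM. COL1A1 did not follow the line in the same way, at 5.51 and 15.5 FPKM in HCT116 and 9.89 and 6.10 FPKM in LOVO, and COL1A2 and PDGFRA were at most 0.031 FPKM in all 4 libraries. The summed level of the list was 5.61 and 16.1 FPKM in HCT116 and 54.0 and 72.8 FPKM in LOVO. The 6 leukocyte markers summed to between 0.250 and 2.09 FPKM in the 4 libraries. The 4 endothelial markers summed to 0.306 and 0.762 FPKM in HCT116 and to 1.13 and 7.84 FPKM in LOVO, the last through PECAM1 at 6.35 FPKM. CDX2, CDH1 and EPCAM, at 3.12 to 85.6 FPKM in HCT116, were thus at 0 to 1.499 FPKM in LOVO, so each line is given by itself below under its label. Whether the cells of the LOVO libraries differ between adherent culture and spheroids, and the part of that in the values below, was not tested.

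The module was lower in spheroids than in adherent cells in both lines, far more so in HCT116 than in LOVO. Member transcripts took 0.452% of all reads in HCT116 adherent cells (95% exact interval 0.449 to 0.455%) and 0.143% in HCT116 spheroids (0.141 to 0.145%), a 3.17-fold lower share. In LOVO the share was 0.440% (0.437 to 0.443%) in adherent cells and 0.307% (0.304 to 0.309%) in spheroids, a 1.44-fold lower share. The median member level was 18.7 FPKM in HCT116 adherent cells, 3.71 FPKM in HCT116 spheroids, 21.3 FPKM in LOVO adherent cells and 11.5 FPKM in LOVO spheroids. The 2 adherent libraries thus held the module at similar levels, and the spheroids of the 2 lines lay apart. Levels of single members ran from 0.533 to 177 FPKM in HCT116 adherent cells, from 0.151 to 36.8 FPKM in HCT116 spheroids, from 1.504 to 78.2 FPKM in LOVO adherent cells and from 0.918 to 44.0 FPKM in LOVO spheroids.

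**Figure D1:**
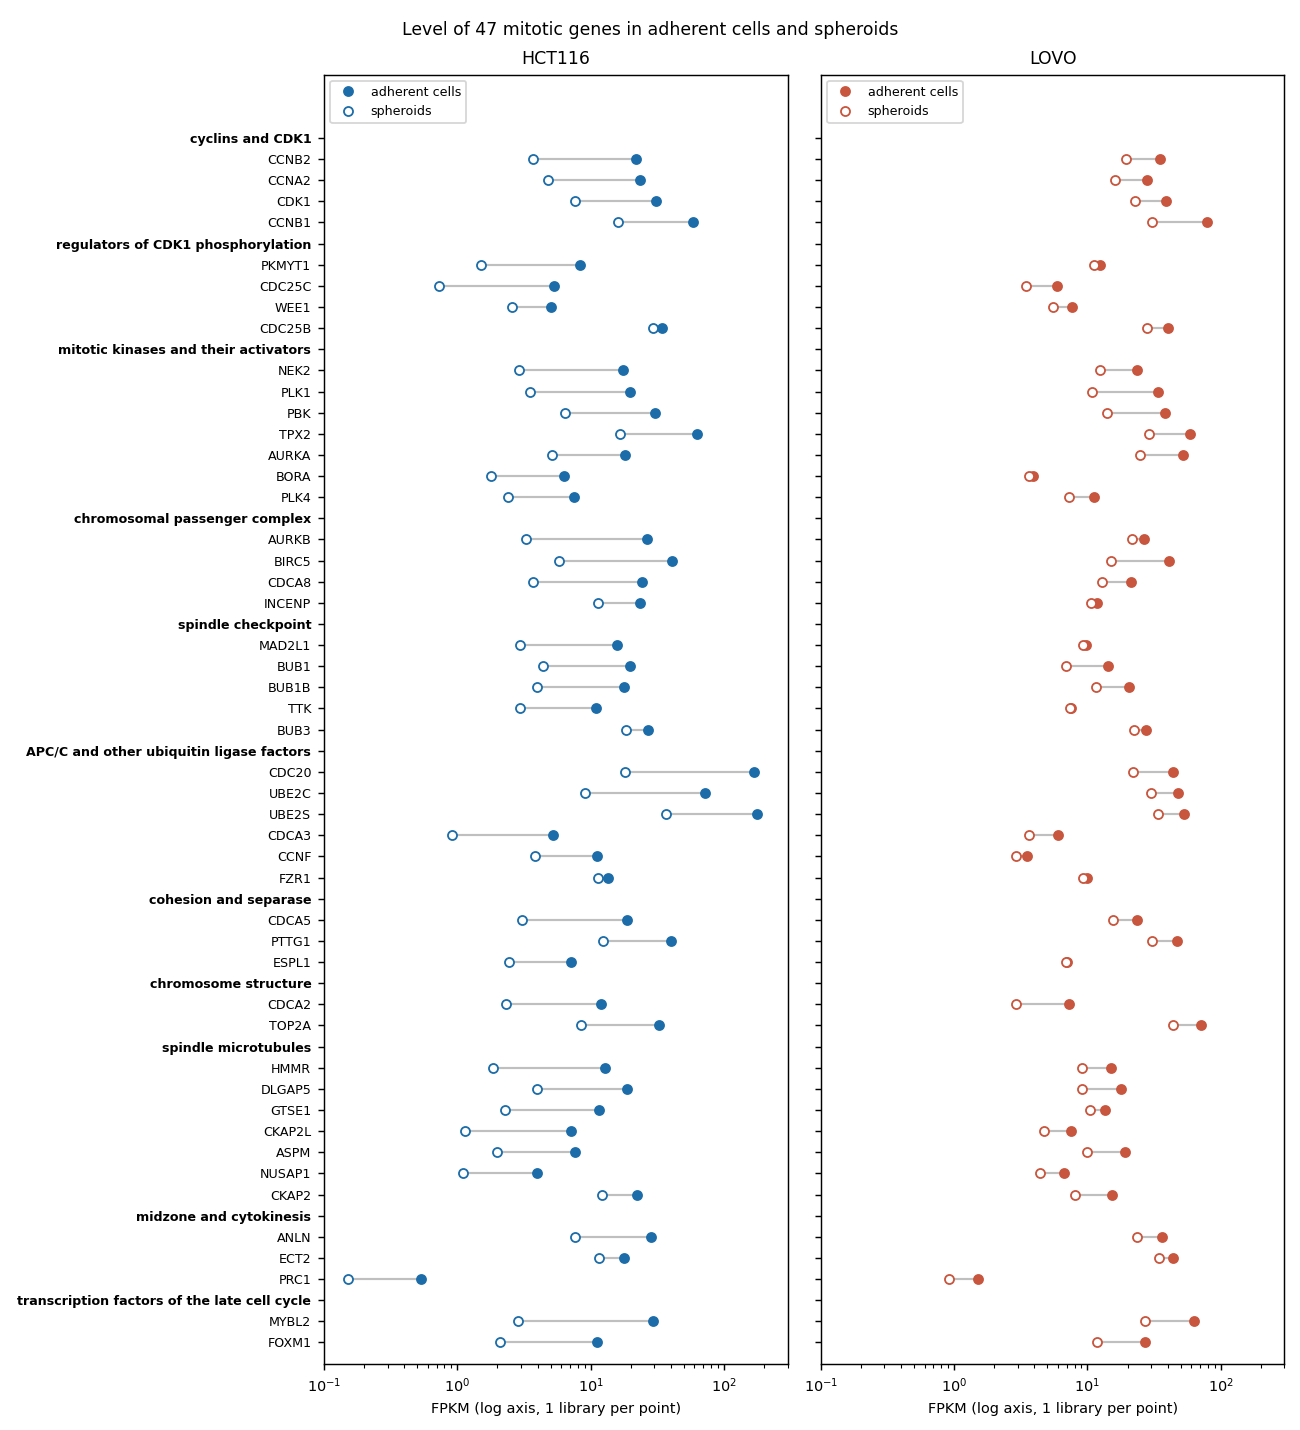
Level of each of the 47 members in FPKM (log axis, 1 library per point) in HCT116 (left) and LOVO (right), grouped by role, with adherent cells as filled points and spheroids as open points joined by a grey line. On the deposited scale each open point lies left of its filled point (with TPM 7 members would not in LOVO), and the gaps are wide in HCT116 (median 18.7 against 3.71 FPKM) and narrow in LOVO (21.3 against 11.5 FPKM).

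Changes were measured as the difference of log2(FPKM + 1), spheroids minus adherent cells, over the 14429 genes with a mean of at least 1 FPKM over the 4 libraries. Of the 47 members 46 passed that filter, and only PRC1 did not. In HCT116 all 46 were lower in spheroids, where 53.4% of all genes compared were lower, with a median of -1.89 against -0.03 over all genes. Among them 39 were below -1, where the background was 3.33% of all genes, and 15 were below -2, where the background was 0.506%. In LOVO all 46 were also lower on the deposited scale, against a background of 53.5%, with a median of -0.66 against -0.06 over all genes, but 39 were lower with TPM, with scaling to the total reads on genes or with protein-coding genes only, and 44 with a TMM-style scaling or centring on the median gene. The members whose LOVO direction turned under one of these scalings were TTK, ESPL1, INCENP, FZR1, MAD2L1, PKMYT1 and BORA. In LOVO 8 members were below -1, where the background was 7.85%, and none was below -2, where it was 0.943%. All 46 were lower in both lines on the deposited scale, against 35.1% of all genes, and the 8 members below -1 in LOVO were below -1 in HCT116 too, against 0.88% of all genes. The 8 were CCNB1, PLK1, AURKA, PBK, BIRC5, CDCA2, FOXM1 and MYBL2. With scaling to the total reads on genes 4 of them, CCNB1, PLK1, PBK and BIRC5, remained below -1 in LOVO. The shares of all genes that were lower, or below -1, under these other scalings were not counted.

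**Figure D2:**
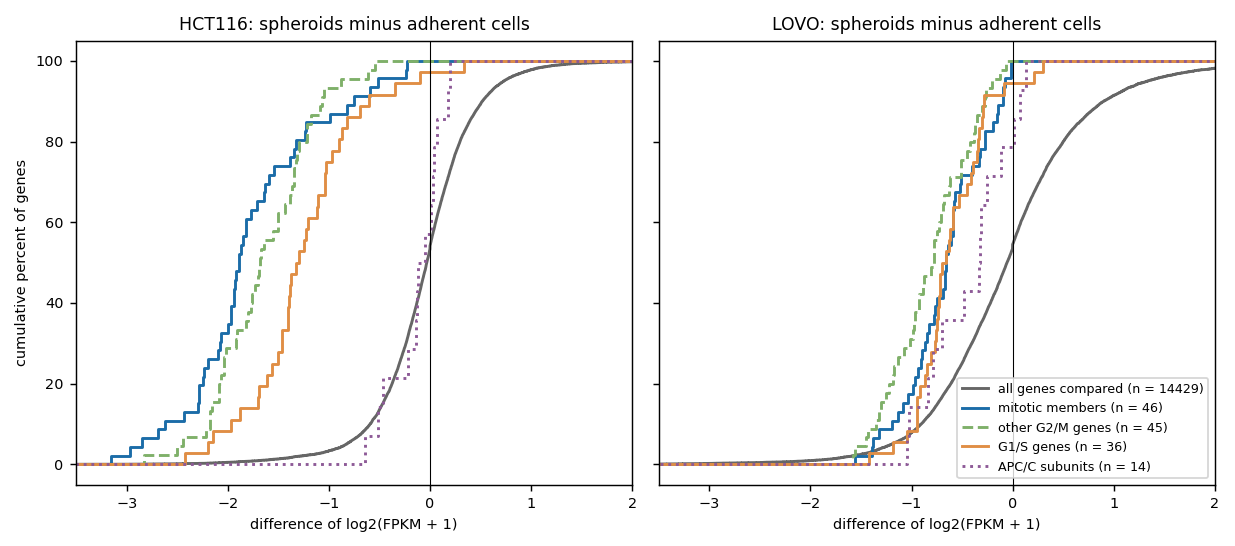
Cumulative percent of genes (vertical axis) against the difference of log2(FPKM + 1), spheroids minus adherent cells (horizontal axis), in HCT116 (left) and LOVO (right) for all genes compared, the members and 3 comparison lists. In HCT116 the member curve lies left of the curve of all genes with a median of -1.89, and in LOVO it lies closer, with a median of -0.66, while the APC/C subunits stay near the curve of all genes in HCT116.

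The promoters of the members were read next, because late cell cycle genes are known to carry a cell cycle genes homology region (CHR), the site bound by DREAM and B-MYB complexes, and CCAAT boxes, the site bound by NF-Y. The windows were RefSeq promoters of GRCh38.p14, from 250 bases before to 50 after a transcript start, and 36 of the 47 members had an entry, with 49 windows. WEE1, PKMYT1, AURKA, TPX2, PBK, BIRC5, BUB3, TTK, UBE2C, CDCA2 and FOXM1 had none. The letters searched on both strands were TTTGAA or TTCGAA for the CHR and CCAAT for the box. In CDCA8 the CHR letters and a reversed CCAAT box share bases. Up to 200 bases before the start are shown for 5 members that span the range of changes described below: CDC20 with the lowest log2(FPKM + 1) change in HCT116, CDK1 as the central kinase, TOP2A with several boxes, ESPL1 with both sets of letters and a LOVO value near 0, and AURKB with a CCAAT box alone. A stretch holds at most 30 bases annotated as exon, so it need not reach the start. CDK1 and AURKB have 2 windows each, of which 1 is shown. Before its start, the CDK1 window not shown holds CHR letters that begin at -69 and -13 and CCAAT boxes at -78 and -46. Capitals mark the CHR letters (TTTGAA, or TTCAAA where the match is on the other strand) and the CCAAT box (CCAAT, or ATTGG on the other strand), and each sequence runs 5′ to 3′ on the strand of its gene.
CDC20, chr1:43358781-43358980, plus strand: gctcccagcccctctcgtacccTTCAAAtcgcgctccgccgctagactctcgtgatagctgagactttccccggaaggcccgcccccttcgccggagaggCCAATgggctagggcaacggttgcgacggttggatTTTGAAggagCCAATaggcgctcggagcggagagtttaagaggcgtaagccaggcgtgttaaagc
CDK1, chr10:60778131-60778330, plus strand: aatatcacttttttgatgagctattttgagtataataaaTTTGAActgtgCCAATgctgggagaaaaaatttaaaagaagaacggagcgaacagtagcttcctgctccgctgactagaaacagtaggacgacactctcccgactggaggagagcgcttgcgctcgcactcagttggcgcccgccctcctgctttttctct
TOP2A, chr17:40417921-40418120, minus strand: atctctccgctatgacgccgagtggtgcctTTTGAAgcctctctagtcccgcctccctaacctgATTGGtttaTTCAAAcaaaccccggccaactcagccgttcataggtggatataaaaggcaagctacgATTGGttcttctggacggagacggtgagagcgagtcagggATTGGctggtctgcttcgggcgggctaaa
ESPL1, chr12:53268099-53268298, plus strand: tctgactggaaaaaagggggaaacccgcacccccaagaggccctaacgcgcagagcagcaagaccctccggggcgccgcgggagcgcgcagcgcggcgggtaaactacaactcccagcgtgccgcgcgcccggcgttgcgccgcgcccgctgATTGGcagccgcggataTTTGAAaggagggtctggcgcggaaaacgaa
AURKB, chr17:8210226-8210425, minus strand: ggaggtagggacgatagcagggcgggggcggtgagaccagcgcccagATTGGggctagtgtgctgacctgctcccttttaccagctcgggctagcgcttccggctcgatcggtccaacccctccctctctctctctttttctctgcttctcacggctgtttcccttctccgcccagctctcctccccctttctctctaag

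CHR letters stood in a window of 28 of the 36 members with an entry (77.8%). The share was 14.8% of 9601 genes compared that had an entry and 19.5% of all 27305 genes with one. CCAAT stood in 30 of 36 members (83.3%), against 43.0% of the genes compared and 39.7% of all genes with an entry. Both stood in the same window in 23 members (63.9%), against 6.31% of the genes compared. In CDC20 the CHR letters nearest the start began 65 bases before it, 10 bases upstream of a CCAAT box, and in ESPL1 they began 31 bases before it. The 8 compared members without the CHR letters in their window were AURKB, CCNA2, CCNB1, CKAP2, MYBL2, NEK2, PTTG1 and UBE2S. Their change had a median of -2.15 (HCT116) and -0.81 (LOVO), against -1.87 and -0.59 for the 27 compared members with the letters. A match describes letters in a window and a missing match says only that these letters were not in it.

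CDK1 and its cyclins were lower in both lines. CDK1, the kinase that drives mitotic entry (chr10:60778331-60794852, plus strand, GRCh38), stood at 30.9 FPKM in HCT116 adherent cells and 7.62 FPKM in HCT116 spheroids, and at 38.8 and 22.7 FPKM in LOVO. The log2 FPKM ratio was -2.02 [-2.16 to -1.88] in HCT116 and -0.78 [-0.86 to -0.69] in LOVO, where the brackets hold 95% counting intervals from the recovered reads. CCNB1 (cyclin B1), the main partner of CDK1 in mitosis, had levels of 58.7 and 15.9 FPKM in HCT116 and of 78.2 and 30.7 FPKM in LOVO, and its ratio of -1.35 [-1.43 to -1.26] in LOVO was the lowest of this role in that line. CCNB2 (cyclin B2) went from 22.03 to 3.68 FPKM in HCT116 and from 35.2 to 19.4 FPKM in LOVO. CCNA2 (cyclin A2), which acts from S phase into early mitosis, went from 23.3 to 4.79 and from 28.00 to 16.1 FPKM. All 4 were below -1 in HCT116 on the log2(FPKM + 1) scale and only CCNB1 was in LOVO.

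The regulators of CDK1 phosphorylation differed widely among themselves. CDC25C, a phosphatase that activates CDK1 at mitotic entry, stood at 5.32 and 0.731 FPKM in HCT116 adherent cells and spheroids, a log2 ratio of -2.86 [-3.37 to -2.40], and at 5.95 and 3.47 FPKM in LOVO, a ratio of -0.78 [-1.02 to -0.54]. Its relative CDC25B, which acts earlier at the centrosome, stood at 34.2 and 29.1 FPKM in HCT116 and at 40.1 and 27.8 FPKM in LOVO. CDC25B was thus among the least changed members of HCT116, with a log2 ratio of -0.23 [-0.31 to -0.15], and it was lower in LOVO, at -0.53 [-0.61 to -0.45]. The FPKM ratio of CDC25C to CDC25B was 0.155 in HCT116 adherent cells and 0.0251 in HCT116 spheroids, against 0.148 and 0.125 in LOVO. The inhibitory kinases also parted. WEE1, which phosphorylates CDK1 in the nucleus, went from 5.03 to 2.58 FPKM in HCT116 and from 7.67 to 5.55 FPKM in LOVO. PKMYT1, the membrane-bound kinase of the same sites, went from 8.25 to 1.502 FPKM in HCT116, a ratio of -2.46 [-2.74 to -2.19], and stood at 12.4 and 11.1 FPKM in LOVO, a ratio of -0.16 [-0.28 to -0.04] that turned above 0 with TPM, total-read or protein-coding scaling. Exons of genes on the other strand overlap 31.6% of the exonic bases of PKMYT1, and the strand setting of the libraries is not given.

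Among the mitotic kinases and their activators, PLK1 had the lowest LOVO value of all members. PLK1, the polo-like kinase of centrosome maturation and mitotic entry, stood at 19.7 and 3.501 FPKM in HCT116 and at 33.6 and 10.8 FPKM in LOVO, with log2 ratios of -2.49 [-2.68 to -2.31] and -1.64 [-1.75 to -1.54]. AURKA, the kinase of spindle poles, stood at 18.1 and 5.102 FPKM in HCT116 and at 51.9 and 24.8 FPKM in LOVO, and TPX2, its activator on microtubules, at 62.7 and 16.7 and at 58.7 and 29.03 FPKM. These 3 had log2(FPKM + 1) changes between -2.20 and -1.64 in HCT116 and between -1.56 and -0.99 in LOVO, so they were among the members low in both lines. NEK2, which splits the centrosomes, went from 17.6 to 2.92 and from 23.4 to 12.4 FPKM. PBK, a kinase active in mitotic cells, went from 30.6 to 6.38 and from 38.1 to 13.9 FPKM. PLK4, the kinase of centriole duplication, went from 7.48 to 2.39 and from 11.3 to 7.26 FPKM. BORA, the cofactor through which AURKA activates PLK1, was lower in HCT116 (6.31 and 1.79 FPKM), but in LOVO its levels of 3.93 and 3.62 FPKM gave a log2 ratio of -0.12 [-0.39 to 0.15], whose interval held 0. Exons of DIS3 on the other strand overlap 37.0% of the exonic bases of BORA, and the strand setting of the libraries is not given.

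**Figure D3:**
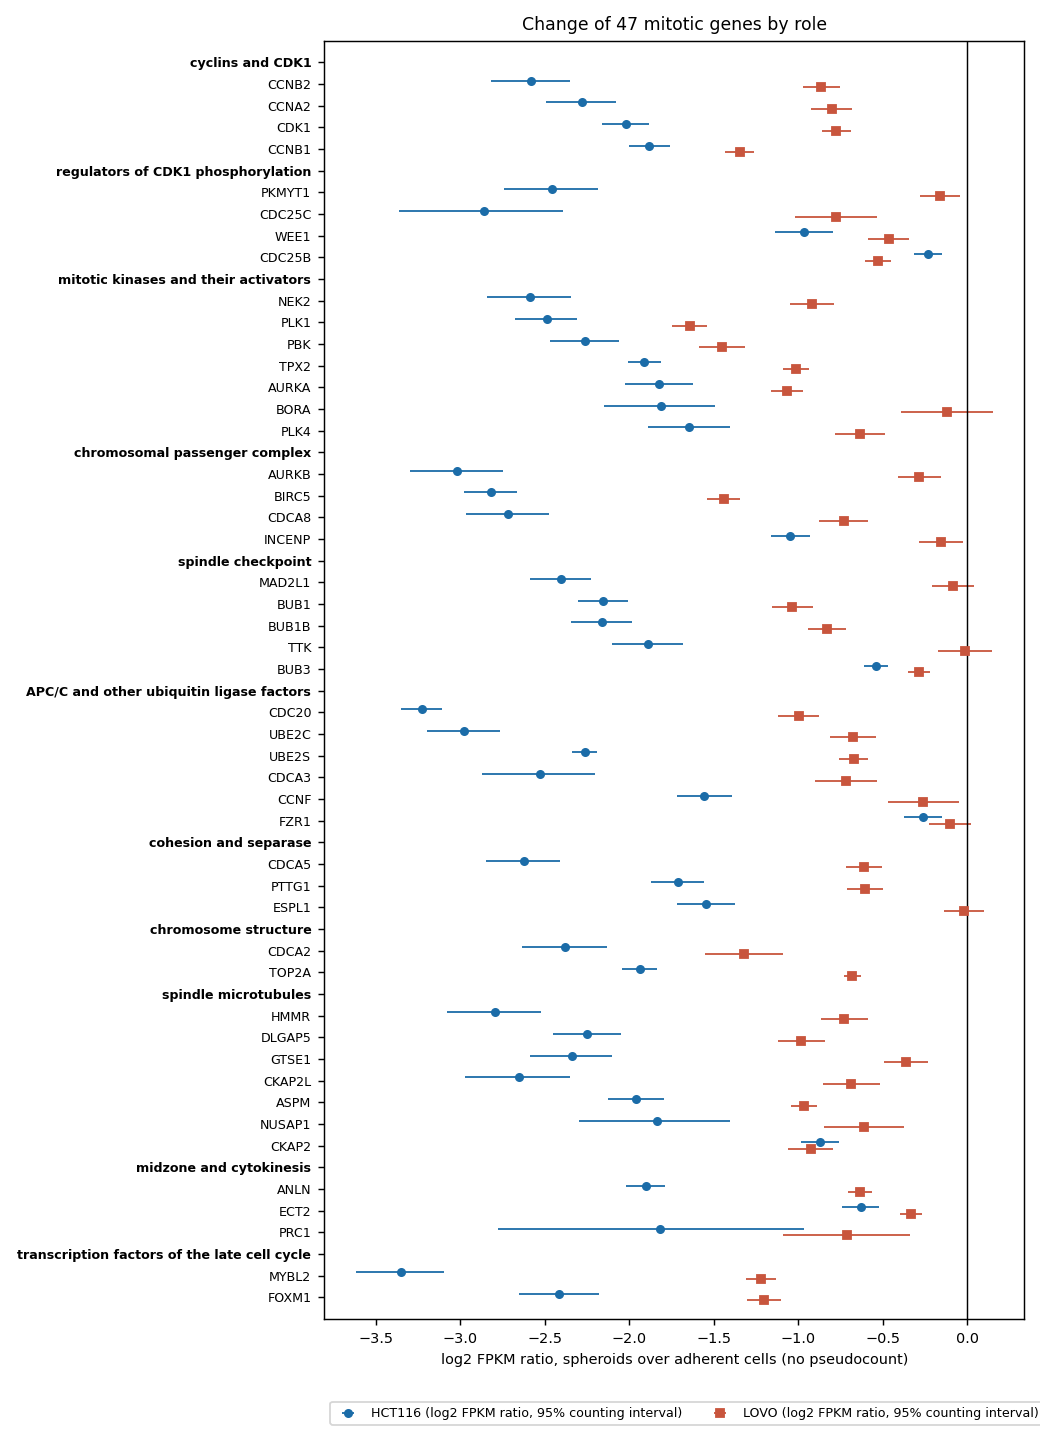
log2 FPKM ratio of spheroids over adherent cells without a pseudocount (horizontal axis) for each of the 47 members by role, in HCT116 (circles) and LOVO (squares), with bars for the 95% counting interval. The HCT116 bars lie below 0, and the LOVO bars of BORA, MAD2L1, TTK, FZR1 and ESPL1 hold 0. The bars cover counting error only, and how many of all genes have such bars was not counted.

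The chromosomal passenger complex held the widest gap between the lines. AURKB, the kinase of the complex, which corrects wrong attachments at the centromere (chr17:8204733-8210600, minus strand, GRCh38), stood at 26.5 FPKM in HCT116 adherent cells and 3.27 FPKM in HCT116 spheroids, and at 26.4 and 21.6 FPKM in LOVO. The log2 ratio was -3.02 [-3.30 to -2.75] in HCT116 and -0.29 [-0.41 to -0.16] in LOVO, from nearly the same adherent level. BIRC5 (survivin), the subunit that brings the complex to centromeres, was lower in both lines, with 40.9 and 5.79 FPKM in HCT116 and 40.9 and 15.05 FPKM in LOVO. CDCA8 (borealin) went from 24.4 to 3.71 and from 21.3 to 12.8 FPKM. INCENP, the scaffold of the complex, changed least, with 23.5 and 11.4 FPKM in HCT116 and 11.9 and 10.7 FPKM in LOVO. The FPKM ratio of AURKB to INCENP was 1.13 in adherent cells and 0.288 in spheroids of HCT116, against 2.22 and 2.03 in LOVO, so in LOVO kinase and scaffold kept nearly the same proportion.

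The spindle checkpoint genes had a median log2(FPKM + 1) change of -1.92 in HCT116 and of -0.27 in LOVO, the value nearest 0 of any role in that line. MAD2L1 (MAD2), which forms the inhibitor of CDC20 at unattached kinetochores, stood at 15.7 and 2.97 FPKM in HCT116, a log2 ratio of -2.41 [-2.59 to -2.23], and at 9.81 and 9.25 FPKM in LOVO, a ratio of -0.08 [-0.21 to 0.04]. TTK (MPS1), the kinase that starts checkpoint signalling, stood at 10.9 and 2.94 FPKM in HCT116 and at 7.54 and 7.46 FPKM in LOVO, with ratios of -1.89 [-2.11 to -1.68] and -0.02 [-0.17 to 0.14]. The LOVO intervals of MAD2L1 and TTK held 0 while their HCT116 intervals lay far below it. BUB1, the kinetochore kinase, was lower in both lines, from 19.6 to 4.39 and from 14.3 to 6.95 FPKM, as was BUB1B (BUBR1), from 17.9 to 3.99 and from 20.5 to 11.5 FPKM, though 10.2% of the exonic bases of BUB1B are shared with a read-through gene. BUB3, a WD-repeat partner of both that is also used outside mitosis, had small changes, with 26.8 and 18.4 FPKM in HCT116 and 27.5 and 22.5 FPKM in LOVO.

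The lowest values of the module in HCT116 were in the APC/C pathway and in MYBL2. CDC20, the activator of the APC/C at anaphase onset (chr1:43358955-43363203, plus strand, GRCh38), whose promoter with CHR letters on both strands is shown above, stood at 168 FPKM in HCT116 adherent cells and 17.96 FPKM in HCT116 spheroids, and at 43.8 and 21.9 FPKM in LOVO. The log2 ratio was -3.23 [-3.35 to -3.11] in HCT116 and -0.999 [-1.12 to -0.88] in LOVO, and CDC20 ranked 4 from the lowest of 14429 genes in HCT116 by log2(FPKM + 1). FZR1 (CDH1), the activator that takes over from CDC20 at the end of mitosis and in G1, had levels of 13.5 and 11.3 FPKM in HCT116 and of 9.899 and 9.23 FPKM in LOVO, with ratios of -0.26 [-0.37 to -0.15] and -0.10 [-0.22 to 0.02]. The FPKM ratio of CDC20 to FZR1 was 12.5 in HCT116 adherent cells and 1.59 in HCT116 spheroids, and 4.43 and 2.37 in LOVO. UBE2C and UBE2S, the ubiquitin-conjugating enzymes that start and extend chains on APC/C substrates, were lower in both lines. UBE2C went from 71.6 to 9.07 FPKM in HCT116, a ratio of -2.98 [-3.20 to -2.77], and from 47.9 to 29.95 FPKM in LOVO, a ratio of -0.68 [-0.81 to -0.54]. UBE2S went from 177 to 36.8 FPKM in HCT116 and from 53.4 to 33.6 FPKM in LOVO. UBE2S shares 15.9% of its 50-base words with other genes and CDC20 7.68%, so part of their reads could come from copies. CDCA3, a trigger of mitotic entry that works with an SCF ligase, went from 5.23 to 0.905 and from 6.04 to 3.67 FPKM. CCNF (cyclin F), the F-box protein of such a ligase, went from 11.2 to 3.81 and from 3.49 to 2.91 FPKM.

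The 14 core subunits of the APC/C itself, listed as a comparison, were read by their median. It was -0.08 in HCT116, with 8 of 14 lower and none below -1, and -0.33 in LOVO, with 11 of 14 lower and 2 below -1. ANAPC15 stood at 1.67 and 0.70 FPKM in HCT116 and at 5.30 and 2.05 FPKM in LOVO, and CDC27 at 21.9 and 19.8 and at 20.5 and 9.58 FPKM. At the other end ANAPC4 stood at 3.96 and 3.995 and at 3.02 and 3.07 FPKM.

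Among the genes of cohesion and its release, CDCA5 (sororin), which stabilises cohesin, stood at 18.7 and 3.03 FPKM in HCT116 and at 23.7 and 15.5 FPKM in LOVO. PTTG1 (securin), the inhibitor of separase, went from 40.3 to 12.3 and from 46.6 to 30.7 FPKM. ESPL1 (separase), the protease that cuts cohesin, went from 7.15 to 2.45 FPKM in HCT116, a ratio of -1.54 [-1.72 to -1.38], and stood at 7.01 and 6.899 FPKM in LOVO, a ratio of -0.02 [-0.14 to 0.10]. The LOVO interval of ESPL1 held 0, and its promoter, shown above, holds both sets of letters. TOP2A, the topoisomerase that untangles sister chromatids, was lower in both lines, with 32.6 and 8.51 FPKM in HCT116 and 70.5 and 44.04 FPKM in LOVO. CDCA2 (Repo-Man), which brings a phosphatase to anaphase chromatin, went from 11.96 to 2.300 and from 7.28 to 2.91 FPKM.

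The 7 spindle microtubule genes were lower in both lines, with log2(FPKM + 1) changes between -2.28 and -0.82 in HCT116 and between -0.91 and -0.33 in LOVO. HMMR, which organises spindle poles, had the lowest value of the role in HCT116, from 12.9 to 1.86 FPKM, and stood at 15.1 and 9.12 FPKM in LOVO. DLGAP5 (HURP), which stabilises kinetochore fibres, went from 18.7 to 3.94 and from 17.9 to 9.05 FPKM. ASPM, a protein of microtubule minus ends, went from 7.69 to 1.97 and from 19.3 to 9.88 FPKM, so it was higher in LOVO than in HCT116 in both cultures. GTSE1 went from 11.6 to 2.29 and from 13.5 to 10.5 FPKM, and CKAP2L from 7.18 to 1.14 and from 7.54 to 4.69 FPKM. CKAP2, a microtubule nucleator, went from 22.3 to 12.2 FPKM in HCT116 and from 15.3 to 8.02 FPKM in LOVO. Its log2(FPKM + 1) changes of -0.82 in HCT116 and -0.85 in LOVO were nearly equal, and its counting intervals in the 2 lines overlapped. NUSAP1, a microtubule bundler, stood at 3.92 and 1.097 and at 6.71 and 4.39 FPKM, but 62.2% of its exonic bases are shared with a read-through gene that was given 0 reads in all 4 libraries.

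In the midzone, ANLN (anillin), the scaffold of the contractile ring, went from 28.4 to 7.58 FPKM in HCT116 and from 36.3 to 23.4 FPKM in LOVO. ECT2, which activates RhoA at the ring, changed less, with 17.9 and 11.5 and 43.7 and 34.7 FPKM. PRC1, the bundler of midzone microtubules, was listed at only 0.533 and 0.151 FPKM in HCT116 (60 and 14 reads) and at 1.504 and 0.918 FPKM in LOVO (149 and 102 reads). A read-through gene that shares 57.6% of its exonic bases held 112, 32, 348 and 373 reads in the same order, so the low PRC1 values are uncertain.

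Both transcription factors of the late cell cycle were among the members that were low in both lines. MYBL2 (B-MYB) stood at 29.1 and 2.85 FPKM in HCT116 and at 62.5 and 26.8 FPKM in LOVO, with log2 ratios of -3.35 [-3.62 to -3.10] and -1.22 [-1.31 to -1.13]. It ranked 6 from the lowest of 14429 genes in HCT116 on the log2(FPKM + 1) scale. FOXM1 stood at 11.1 and 2.08 FPKM in HCT116 and at 27.03 and 11.7 FPKM in LOVO, with ratios of -2.41 [-2.66 to -2.18] and -1.20 [-1.31 to -1.10]. The 9 compared subunits of the DREAM complex, whose MuvB core MYBL2 binds after the pocket protein has left, moved by a median of -0.42 (HCT116) and -0.49 (LOVO), with 5 of 9 lower in each line. RBL1 (p107) stood at 3.93 and 1.76 FPKM in HCT116 and at 8.04 and 2.58 FPKM in LOVO, and TFDP1, the E2F dimer partner, at 39.9 and 24.0 and at 67.4 and 39.3 FPKM. RBL2 (p130), the pocket protein of resting cells, stood at 6.53 and 9.47 and at 11.1 and 19.0 FPKM, and E2F5 at 1.94 and 3.51 and at 1.26 and 1.33 FPKM. RBL1 and TFDP1 were lower and RBL2 higher in the spheroids of both lines on the deposited scale. E2F5 was higher in HCT116 spheroids, and its LOVO log2 ratio was 0.08 [-0.26 to 0.42], whose interval held 0.

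The lines were also compared at matched culture. In adherent cells the members had a median LOVO minus HCT116 difference of 0.19 on the log2(FPKM + 1) scale and 28 of 46 higher in LOVO, where 53% of all genes were. By more than 1, AURKA, TOP2A, ASPM, ECT2, FOXM1 and MYBL2 were higher in LOVO adherent cells and CDC20, UBE2S and CCNF were higher in HCT116 adherent cells. How many of all genes differed by more than 1 between the lines was not counted. In spheroids the median difference was 1.35, against 0.04 over all genes, and 40 of 46 were higher in LOVO, against 51.6% of all genes. Across the 46 members, the change in HCT116 and the change in LOVO correlated with Pearson's r of 0.475 and Spearman's rho of 0.497, against 0.302 and 0.353 over all 14429 genes. Both values describe genes measured in the same 4 libraries, and genes are not independent replicates. The change was the more negative in HCT116 in 44 of 46 members, against 47.8% of all genes. By the difference between the lines, AURKB (2.41), CDC20 (2.19), UBE2C (2.19) and MAD2L1 (2.0) stood farthest apart, and PLK1, CCNB1 and BIRC5 were low in both.

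**Figure D4:**
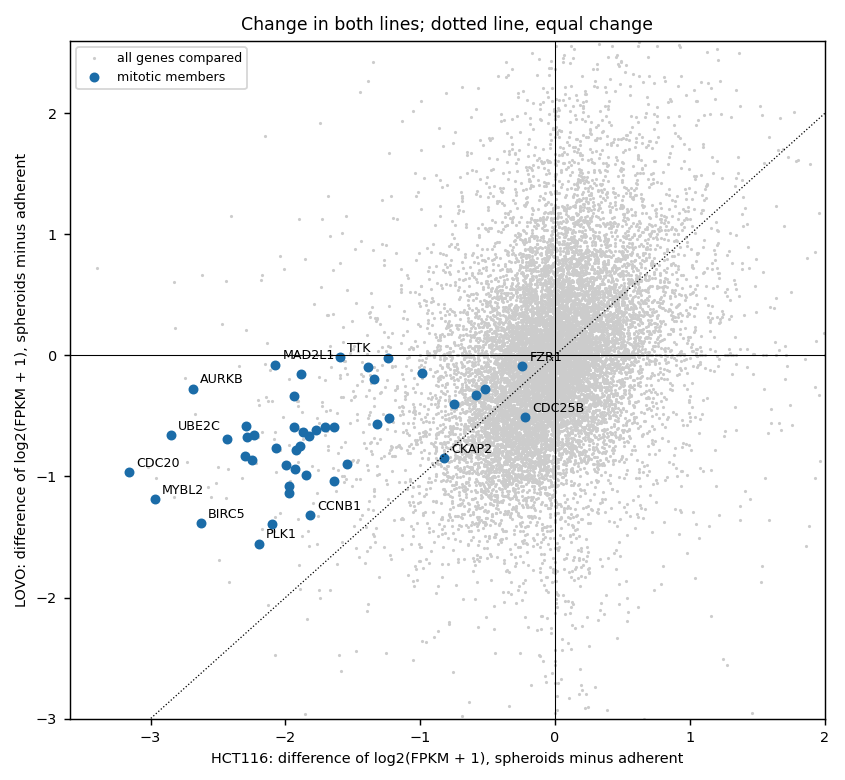
Difference of log2(FPKM + 1), spheroids minus adherent cells, in HCT116 (horizontal axis) and LOVO (vertical axis) for the 46 members compared (blue points, 12 of them named) over all 14429 genes compared (grey, some beyond the axes), with a dotted line of equal change. Of the 46 members 44 lie above the dotted line, with AURKB 2.41 above it, and only CDC25B and, barely, CKAP2 lie below it.

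Other cell cycle genes were set beside the members. All 45 further G2/M genes, such as kinesins, condensins and kinetochore subunits, were lower in both lines on the deposited scale, by a median of -1.69 (HCT116, 42 below -1) and -0.78 (LOVO, 14 below -1). SKA1, of the outer kinetochore, had the lowest mean change, at 17.1 and 1.55 FPKM in HCT116 and 11.7 and 4.65 FPKM in LOVO, followed by the condensin subunit NCAPG at 16.1 and 2.15 and at 18.9 and 7.78 FPKM. CKS1B (35.7 and 16.7, 70.1 and 58.1 FPKM) and KIF18A (8.13 and 4.99, 5.58 and 3.92 FPKM) were at the other end. MKI67, the common marker of dividing cells, stood at 44.2 and 9.79 FPKM in HCT116 and at 32.0 and 15.9 FPKM in LOVO. Of 36 G1/S genes, which serve DNA replication, 35 were lower in HCT116 with a median of -1.31 and 34 in LOVO with a median of -0.68, and 27 and 3 were below -1. RRM2 went from 18.5 to 2.62 and from 17.6 to 8.67 FPKM, and MCM2 from 14.0 to 4.67 and from 92.8 to 34.1 FPKM. CCNE1 (cyclin E1) stood at 9.12 and 11.8 and at 5.62 and 6.67 FPKM, and CCNE2 at 1.44 and 1.27 and at 3.92 and 2.86 FPKM. CHR letters stood in the promoters of 31 of 41 further G2/M genes with an entry (75.6%) and of 2 of 31 G1/S genes (6.45%).

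Targets of p53, which DNA damage can induce, had a median change of -0.05 (HCT116, 12 of 20 compared lower) and -0.23 (LOVO, 14 of 20 lower), against -0.03 and -0.06 over all genes. Their changes ran from -0.69 to 1.21 in HCT116, with 8 of 20 higher, and from -1.32 to 1.35 in LOVO, with 6 of 20 higher. The genes named here were picked by their mean change over both lines, so they do not show the spread within a line. CDKN1A (p21), an inhibitor of cyclin-dependent kinases through which p53 can hold late cell cycle genes low, stood at 202 and 201 FPKM in HCT116 and at 24.5 and 63.9 FPKM in LOVO. CDKN1A was therefore level in HCT116 and higher in spheroids than in adherent cells in LOVO. PLK3 stood at 31.7 and 25.2 and at 1.94 and 5.31 FPKM, and AEN (20.8 and 13.7, 17.2 and 9.25 FPKM) and FDXR (36.4 and 22.3, 4.99 and 2.69 FPKM) had the lowest mean changes of the list.

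The only fit over all 4 libraries took the lines as replicates, with culture and line as terms and 1 residual degree of freedom. limma called 0 of 14429 genes (0%) at a Benjamini-Hochberg adjusted p under 0.05, with a smallest adjusted p of 0.462. At an unadjusted p under 0.05 it had 1545 genes, of which 928 were lower in spheroids (6.43% of all genes), and 32 of the 46 members were among these. PLK1 had a log2(FPKM + 1) change of -1.88 with a standard error of 0.28, and MYBL2 of -2.08 with a standard error of 0.47, both with limma's adjusted p at 0.462. No member passed the adjusted threshold, so the directions above rest on 1 library per condition.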

How the data were processed

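RNA was sequenced from 1 library of each of 4 conditions with a SMARTER mRNA-Seq kit, whose strand setting is not given in the sources used here. The authors deposited FPKM per gene, with gene length and position. The aligner and counter are not given in the sources used here. The submitters' processing notes name the builds GRCm38 and mm10, which are mouse builds, but all 58735 identifiers are those of GENCODE 29 on human GRCh38, and 58724 have its start and end.

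FPKM multiplied by gene length gave whole reads for 100% of values within a set tolerance. That tolerance was 0.01 read and widened in proportion to the count for genes with many reads. Reads were therefore recovered for counting intervals (exact Clopper-Pearson, 95%) and for library totals of 15483569 to 20429147 reads. The depth the authors divided by was 0.907 to 1.09 times these totals. A floor of 3 reads is 0.147 to 0.179 FPKM for a gene of 1 kb. PCR copies could not be told from separate molecules, so intervals and floors cover counting error only. Genes with a mean of at least 1 FPKM over the 4 libraries were compared on log2(FPKM + 1), a scale that understates the change of low genes, with thresholds of 2, which the study used, and 1. All genes were fitted with limma (trend, Benjamini-Hochberg, two-sided) with the cell line as a block. On simulated data its false calls exceeded the nominal rate. The block rests on the design, since both conditions were made in each line, and with 2 lines it holds for these lines only. Exon overlaps came from GENCODE and promoter sequences from RefSeq. Of the members, 14 overlap exons of a gene on the other strand, which cannot be told apart without strand.

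All 47 members are named. Of each other list of cell cycle or p53 genes the 2 with the lowest and the 2 with the highest mean change are named, plus MKI67, CDKN1A and E2F1, and cell type markers are given by list. TP53I3 is outside this rule. The members and lists were chosen with earlier results of these data known. Alternatives were other pseudocounts, scalings, filters and thresholds. Analyses used Python 3.11.15, numpy 2.4.6, pandas 2.3.3, scipy 1.17.1, matplotlib 3.10.9, R 4.3.3 and limma 3.58.1.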

Additional observations from a re-analysis of the deposited data

Results flagged for a closer look

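Some genes outside the module moved in opposite directions in the 2 lines on the log2(FPKM + 1) scale, spheroids minus adherent cells, with 1 library per condition, and the difference between the lines was not tested. E2F1, a transcription factor of the G1/S transition, had a change of -1.32 in HCT116 and 0.30 in LOVO. PLK3, a polo-like kinase that p53 can induce, had -0.32 and 1.10. TP53I3, another p53 target, had 1.21 and -1.32, and is named after its values were seen because they lay far apart. ANAPC5, an APC/C subunit, had 0.19 and -0.25. EPCAM, the epithelial adhesion molecule, had -0.11 and 0.37, and COL1A1, a collagen chain, had 1.34 and -0.62. The LOVO value of EPCAM rests on 42 and 76 reads. The changes of EPCAM and ANAPC5 are small, and whether their directions hold under the other scalings was not examined. No member of the module moved in opposite directions on the deposited scale. Of all genes compared, 53.4% were lower in HCT116, 53.5% in LOVO and 35.1% in both. The share of all genes that moved in opposite directions was not counted.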

How the results depend on the processing

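The module was lower in HCT116 under every scaling, pseudocount and filter tried, and no compared member turned direction in that line. The number of members below -2 in HCT116 was 26 with a pseudocount of 0.1 (1.28% of all genes) or 0.01 (1.64%) and 25 with TPM (0.894%) or protein-coding genes only (0.779%), against 15 on the deposited scale (0.506%), and 39 were below -1. The HCT116 median was -2.18 with a pseudocount of 0.1, -2.20 with 0.01, -2.10 with TPM and -2.07 with protein-coding genes only. In LOVO 8 members were below -1 on the deposited scale, but 4 with total reads on genes, 6 with TPM or protein-coding genes only and 10 with a pseudocount of 0.1 or 0.01. On the deposited scale 7.85% of all genes were below -1 in LOVO, and the shares under the other settings were not counted. The LOVO median of the members was -0.48 with TPM, -0.45 with total reads on genes and -0.49 with protein-coding genes only. The median of all genes in LOVO moved from -0.06 to 0.10 with TPM and to 0.08 with total reads, and 7 members turned above 0 there. Changes of single members moved in 199 of 820 recomputed values. Limma called 0 genes under each alternative. With no replicate block (the cell line term left out) it called 0 genes as well, with 163 genes and 9 members at an unadjusted p under 0.05 against 1545 and 32. With 1 library per condition, no replicate could be left out, and PRC1 with 14 reads in HCT116 spheroids is limited by depth.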
